A study of Homo sapiens with 2 samples.

Results

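A set of 9 genes of the integrated stress response (ISR) was examined for binding of NRF1, the transcription factor encoded by NFE2L1, in HCT116 cells under proteasome inhibition. They are ATF4, DDIT3, TRIB3, PPP1R15A, ASNS, CHAC1, SESN2, DDIT4 and GDF15. A peak was assigned to a gene where its centre lay within 20 kb of any transcription start site (TSS) of that gene in the GENCODE annotation on hg19. Under this rule 8 of the 5683 peaks in the deposited list lay at 4 of the 9 genes: 4 peaks at TRIB3, 2 at GDF15 and 1 each at SESN2 and PPP1R15A. The other 5 genes had none. Over the 20163 protein-coding genes of the annotation, among which all 9 were found, 18.7% had a peak by the same rule.

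The peaks came from 1 NRF1 ChIP-seq library of HCT116 cells, a human colorectal carcinoma line, kept for 16 h in 1 µM MG132, a peptide aldehyde that inhibits the proteasome. An input library of cells given the same treatment, with no antibody, was not analysed here. No library of untreated cells was analysed here, so a peak shows NRF1 signal in treated cells and not a change with treatment. With 1 library there is no replicate error, the read depth is unknown, and intervals of shares are 95% Wilson intervals that cover counting error only.

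In the ISR, kinases that sense distinct stresses phosphorylate the translation initiation factor eIF2 on its alpha subunit, which slows protein synthesis in general while the mRNA of ATF4 is translated more. ATF4 then binds, together with C/EBP family partners, to C/EBP-ATF response elements (CAREs) at genes of amino acid supply, redox balance and cell death. NRF1 belongs to another branch of the basic leucine zipper factors: it is held at the endoplasmic reticulum and degraded, and when the proteasome is inhibited a processed form enters the nucleus, pairs with small MAF proteins and binds antioxidant response elements (AREs). The question for these genes was whether induction by MG132 came with an NRF1 peak nearby.

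The sequences under the peaks of TRIB3 are shown first, because this gene had the most peaks and the highest score of the set. Each is the plus strand of hg19, which is also the coding strand of TRIB3, and is named by the distance of the peak centre from the canonical TSS. Capitals mark AREs, searched on both strands as TGAGNNNGC or TGACNNNGC, and CAREs, searched on both strands as TGATGNAA. A site on the minus strand reads here as its reverse complement.
TRIB3 peak at -15662 bp, chr20:345736-345839: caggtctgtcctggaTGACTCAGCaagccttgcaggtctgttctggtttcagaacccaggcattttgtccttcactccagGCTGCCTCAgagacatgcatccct
TRIB3 peak at -9654 bp, chr20:351560-351842: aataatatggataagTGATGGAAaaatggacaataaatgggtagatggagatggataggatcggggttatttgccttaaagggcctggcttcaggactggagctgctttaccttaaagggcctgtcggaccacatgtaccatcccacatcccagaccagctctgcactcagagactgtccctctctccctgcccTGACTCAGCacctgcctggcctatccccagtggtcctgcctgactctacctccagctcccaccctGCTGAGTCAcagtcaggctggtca
TRIB3 peak at -8606 bp, chr20:352609-352874: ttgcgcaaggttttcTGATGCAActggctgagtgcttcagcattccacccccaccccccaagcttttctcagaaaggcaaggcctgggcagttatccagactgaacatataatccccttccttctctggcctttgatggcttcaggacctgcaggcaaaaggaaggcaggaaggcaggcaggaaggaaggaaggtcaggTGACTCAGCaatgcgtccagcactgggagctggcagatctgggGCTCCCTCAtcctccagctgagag
TRIB3 peak at 20015 bp, chr20:381494-381609: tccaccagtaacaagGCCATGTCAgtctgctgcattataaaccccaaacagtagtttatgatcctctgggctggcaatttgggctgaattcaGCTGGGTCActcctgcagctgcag

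The first 3 TRIB3 peaks each held TGACTCAGC, which together with TGAGTCAGC is called the longer ARE form here. This form is as long as the consensus but has the free bases fixed as TCA, and it also contains the core shared with AP-1 sites. The second peak held it on both strands. The plus-strand copies lay 13, 8 and 14 bp from the centres of their peaks, and the other copy of the second peak lay 73 bp from its centre. The second and the third peak also held a CARE each, TGATGGAA and TGATGCAA, at 172 and 171 bp to the left of the centre. The third peak held a further ARE, TGACCTTGC, 196 bp from its centre and outside the stretch shown. The fourth peak held no copy of the longer form.

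The sequences at GDF15 are shown because this was the one gene of the set on both array lists described below. They are again the plus strand of hg19, the coding strand of GDF15, with AREs and CAREs in capitals.
GDF15 upstream peak, chr19:18485397-18485435: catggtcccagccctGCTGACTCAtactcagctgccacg
GDF15 intronic peak, chr19:18490943-18491078: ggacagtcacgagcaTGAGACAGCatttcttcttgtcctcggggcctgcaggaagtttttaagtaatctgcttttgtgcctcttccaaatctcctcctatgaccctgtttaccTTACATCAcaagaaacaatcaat

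The upstream GDF15 peak held TGAGTCAGC on the minus strand, 32 bp from its centre, and the intronic peak held TGAGACAGC 23 bp from its centre and a CARE, TGATGTAA on the minus strand, 74 bp from it. For SESN2 the stretch with both AREs of its peak is given on the plus strand, the coding strand of the gene.
SESN2 peak, chr1:28575120-28575387: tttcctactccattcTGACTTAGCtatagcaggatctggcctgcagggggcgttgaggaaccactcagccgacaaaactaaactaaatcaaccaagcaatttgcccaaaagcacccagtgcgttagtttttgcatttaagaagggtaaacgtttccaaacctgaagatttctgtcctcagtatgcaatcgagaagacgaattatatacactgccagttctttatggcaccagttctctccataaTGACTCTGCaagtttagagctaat

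Neither SESN2 site had the longer form: TGACTTAGC lay 188 bp to the left and TGACTCTGC 41 bp to the right of the centre. The AREs of the PPP1R15A peak lie in the first exon of an alternative transcript that starts at position 49375469. Those at 49375499 and 49375526 are upstream of the canonical TSS at 49375678, and the one at 49375758 is downstream of it. Each is given with 5 bases on both sides, on the strand on which it reads as an ARE.
PPP1R15A minus strand, chr19:49375499-49375507 in capitals: gagcgTGACCACGCccctc
PPP1R15A plus strand, chr19:49375526-49375534 in capitals: cgccgTGACGTTGCaaaag
PPP1R15A plus strand, chr19:49375758-49375766 in capitals: gcactTGAGGCAGCcggag

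TRIB3, which encodes a pseudokinase that is a target of ATF4 and CHOP and restrains their output, carried 4 peaks at chromosome 20:343479-378203 and beyond its end. The first, chr20:345309-346175, was 867 bp wide and had a score of 624.86. The score is the authors' value for each peak, which MACS writes as 10 times the negative log10 of its p-value, so that a higher score means a peak that stands further above the local background. This peak was 69th of 5683 by score, and its centre lay 2263 bp downstream of the TSS of the longest TRIB3 transcript but 15662 bp upstream of the canonical TSS at position 361404. The second and the third peak, chr20:351482-352019 and chr20:352439-353158, had scores of 83.54 and 158.13, ranks of 3232 and 1331, and centres 9654 and 8606 bp upstream of the canonical TSS. Their centres were 1048 bp apart, and the 3 peaks all fell in intron 1 of the long transcript (positions 343558 to 356088), upstream of the other 3 TRIB3 transcripts.

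The fourth TRIB3 peak, chr20:381145-381694, scored 99.17 and was an assignment by distance only. It was intergenic, 20015 bp downstream of the canonical TSS and 19478 bp from the nearest alternative one, and RBCK1, which encodes a subunit of the linear ubiquitin chain ligase, had the nearest TSS at 6723 bp. It was the member peak just inside the limit of 20 kb. The nearest peak just outside it for any of the 9 genes was also at TRIB3, chr20:382508-382909, at 20767 bp with a score of 55.27. Among protein-coding genes 0.0942% (19 of 20163) had 4 or more peaks within 20 kb of a TSS, and with the 3 intronic peaks alone TRIB3 would be among 108 genes with at least 3.

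**Figure D1:**
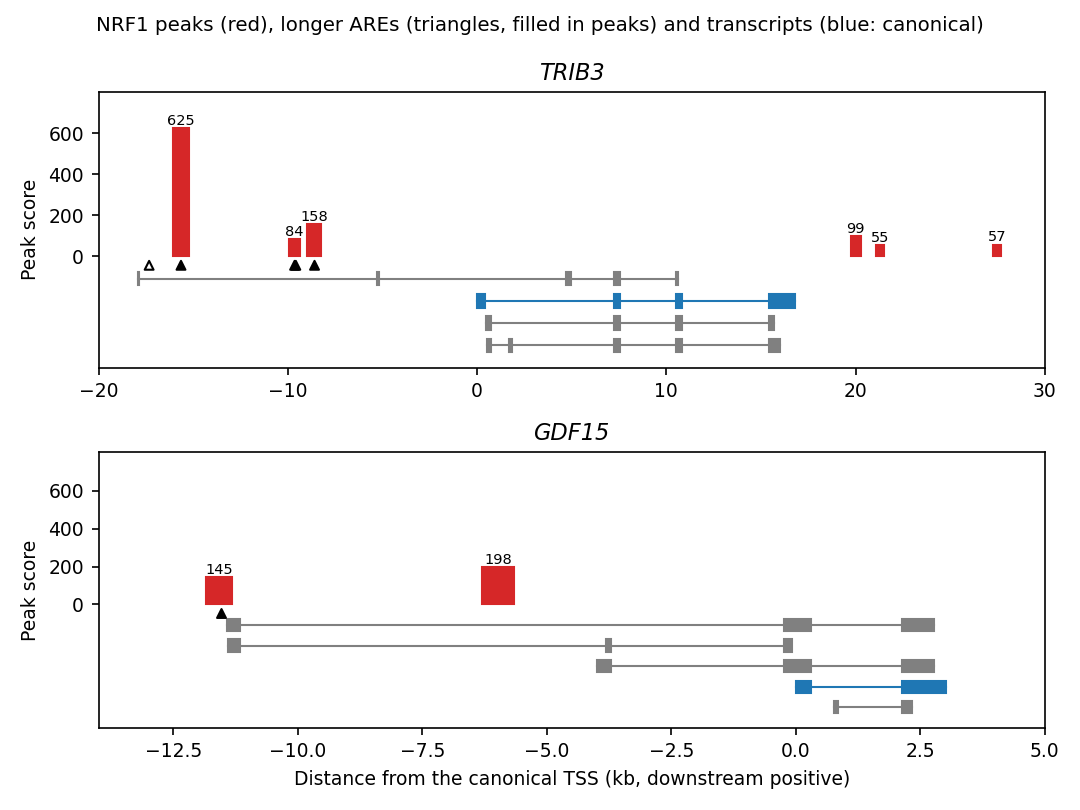
NRF1 peaks at TRIB3 (top) and GDF15 (bottom) against distance from the canonical TSS in kb, with bar height giving the peak score (numbers above the bars), bar width the peak's extent, triangles the longer ARE form (filled where it lies in a peak) and lines with boxes the annotated transcripts and their exons (canonical one in blue). At TRIB3 the peak with a score of 624.86 and its 2 neighbours lie in the first intron of the longest transcript, upstream of the canonical TSS, and at GDF15 both peaks lie upstream of the canonical TSS.

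GDF15, which encodes a secreted stress cytokine of the TGF-beta superfamily, had 2 peaks at chromosome 19:18485541-18499986. The one at chr19:18485121-18485648 scored 145.01 (rank 1524) and was centred 157 bp upstream of the most distal of 5 annotated TSSs, which is 11427 bp upstream of the canonical TSS at 18496968. The other, chr19:18490669-18491302, scored 197.56 (rank 931) and lay in an intron of the long transcripts, 5983 bp upstream of the canonical TSS and 1995 bp upstream of an alternative TSS. No peak of the list lay at the canonical GDF15 promoter. GDF15 had the nearest TSS to both peaks, and the TSSs of PGPEP1 and LRRC25 were over 17 kb away (17068 and 17436 bp).

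SESN2 encodes sestrin 2, a leucine sensor that restrains mTORC1 when amino acids are short. Its only peak, chr1:28575018-28575636, scored 85.51 (rank 3135) and was centred 10702 bp upstream of its single TSS, in intergenic sequence. A long noncoding RNA gene without a name in the annotation had a nearer TSS, at 1672 bp, while SESN2 was the nearest protein-coding gene. PPP1R15A encodes GADD34, which brings protein phosphatase 1 to eIF2 alpha and so ends the response. Its peak, chr19:49375420-49375822, was the one peak of the set at a canonical TSS, with its centre 57 bp upstream of it, and it had the lowest score of the 8, 54.28 (rank 5195), close to the 50.00 at which the list ends.

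The remaining 5 genes had no peak within 20 kb. ATF4, the central factor of the response, had its nearest peak 54330 bp away, with a score of 64.87 and a copy of TGACTCAGC, next to CACNA1I. DDIT3 encodes CHOP, a C/EBP family factor that acts in cell death under prolonged stress, and its nearest peak scored 233.67 but lay 110791 bp away, 119 bp from a TSS of B4GALNT1. DDIT4, which encodes the mTORC1 inhibitor REDD1, had its nearest peak at 98541 bp (score 91.91), next to ASCC1. CHAC1, which encodes an enzyme that degrades glutathione, had it at 159329 bp (score 52.47), nearest to DNAJC17. ASNS, which encodes asparagine synthetase, had it at 413821 bp (score 76.73), next to BRI3, and this peak held no ARE. The median distance over protein-coding genes was 105 kb, so that ATF4 and DDIT4 lay nearer to a peak than the median gene and DDIT3, CHAC1 and ASNS further, and 15.5% of protein-coding genes were at least as far from a peak as ASNS.

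**Figure D2:**
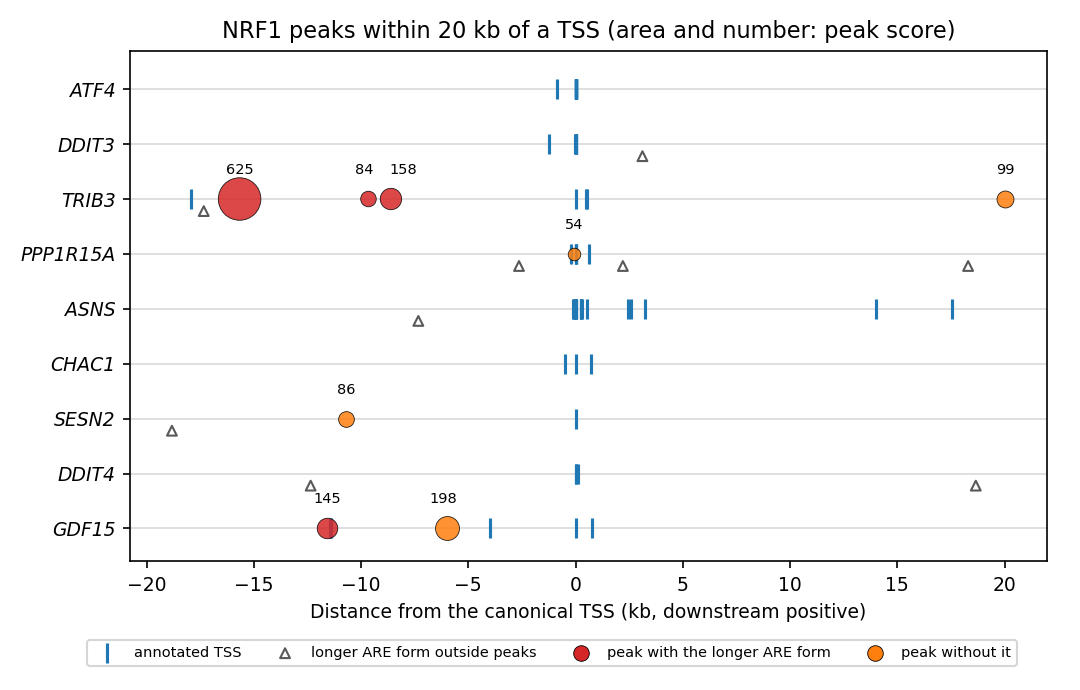
NRF1 peaks within 20 kb of a TSS of each of the 9 genes, placed by distance from the canonical TSS in kb, with the area of the circle and the number above it giving the peak score (red, peak with the longer ARE form; orange, peak without it). Blue ticks are annotated TSSs and open triangles are longer AREs outside peaks; ATF4, DDIT3, ASNS, CHAC1 and DDIT4 have no circle, and PPP1R15A alone has one at its canonical TSS.

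The count of 4 of 9 genes with a peak (44.4%, interval 18.9 to 73.3) stood beside 18.7% of all protein-coding genes (3766 of 20163) at the same distance. Within 2 kb of a TSS it was 2 of 9, PPP1R15A and GDF15, beside 6.03%. The interval at 20 kb spans over 50 percentage points and its lower bound lies next to the background share. At 10 kb the count was 3 of 9 beside 12.6%, and at 50 kb it was still 4 of 9, beside 32.7%. At 100 kb it was 6 of 9 beside 48.7%, ATF4 and DDIT4 having been added.

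**Figure D3:**
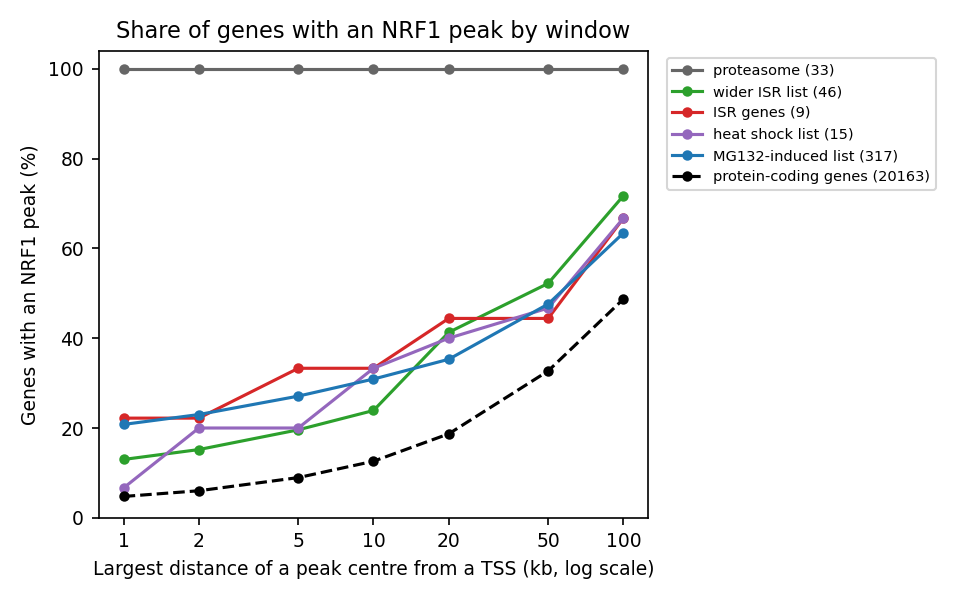
Share of genes with an NRF1 peak centre within a given distance of a TSS (1 to 100 kb, log scale) for the 9 ISR genes, the comparison lists and all protein-coding genes (dashed), with the number of genes in brackets. The 9 genes run above all protein-coding genes and near the wider ISR, heat shock and MG132-induced lists, and all 33 proteasome genes have a peak within 1 kb.

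The scores of the 8 peaks spread from 54.28 to 624.86 around a median of 122.09, beside 91.86 over all 5683 peaks. Of the 8, 5 were above that overall median and 4 reached a score of 100, as did 44.3% of all peaks (2519). The 4 were 2 peaks of TRIB3 and both peaks of GDF15, so that SESN2 and PPP1R15A dropped out under this higher threshold. The width of the 8 peaks ran from 403 to 867 bp, and 7 were wider than the median of 501 bp over all peaks. Their GC content ran from 44.9 to 60.0%, with 7 above the overall median of 45.3%.

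**Figure D4:**
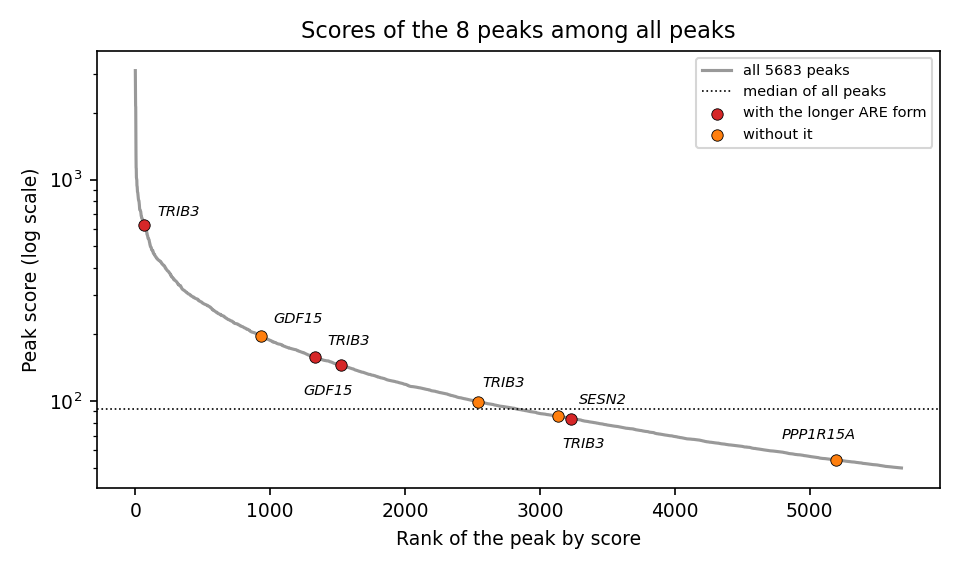
Peak score (log scale) against rank by score for all 5683 peaks (grey line), with the 8 peaks of the ISR genes marked and named by gene (red, with the longer ARE form; orange, without it) and the median of all peaks dotted. One TRIB3 peak is 69th, both GDF15 peaks and a second TRIB3 peak lie within the top 1524, and the PPP1R15A peak is near the lower end.

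All 8 peaks held at least 1 ARE, beside 87.4% of the 5673 peaks searched, and 4 held the longer form, beside 61.3%. Of the 3028 peaks within 20 kb of a TSS of a protein-coding gene, 56.4% held the longer form. In flanks of equal width starting 2 kb from each peak, 10 of 16 held an ARE and 2 of 16 the longer form, both beside PPP1R15A. The consensus with free bases was thus frequent outside peaks as well. The ARE nearest to the centre lay between 8 and 94 bp from it in the 8 peaks, with a median of 27.5 bp beside 29.0 bp over all peaks with an ARE. It lay within 50 bp in 6 of the 8 and in 64.0% of all peaks searched. A CARE was found in 3 of the 8 peaks (2 of TRIB3, 1 of GDF15), beside 9.54% of all peaks. These 3 peaks were 538, 720 and 634 bp wide, beside a median of 501 bp over all peaks. A wider peak offers more sequence to match, and no count of CAREs in flanks is given.

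The longer ARE form was also counted in the whole 20 kb around the genes, inside and outside peaks. Of 14 copies, 5 lay in a peak: 4 of 5 at TRIB3 and the only copy at GDF15. The fifth copy at TRIB3 lay 17333 bp upstream of the canonical TSS and in no peak. None of the 3 copies at PPP1R15A was in a peak, although one lay 2637 bp upstream and another 2206 bp downstream of the canonical TSS, and the copy at SESN2 (18817 bp upstream) was in none either. Of the 5 genes without a peak, DDIT3 (3118 bp downstream), ASNS (7330 bp upstream) and DDIT4 (12350 bp upstream and 18658 bp downstream) had copies, while ATF4 and CHAC1 had none. Genome-wide, 7.47% of 51467 copies lay in a peak. Of the copies within 20 kb of protein-coding genes, counted gene by gene, it was 9.44%, and 67.5% of protein-coding genes had such a copy.

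MG132 induction was read only as presence on the study's lists of array probes, matched by symbol, and no array value was used. The study made both lists with fold-change cut-offs, so absence from a list does not show that a gene was unchanged. Of the 9 genes, 8 were on the list of genes raised by MG132, all except ATF4. The whole list matched 317 genes of the annotation, which holds 20163 protein-coding genes. Of these 8, TRIB3, GDF15, SESN2 and PPP1R15A had an NRF1 peak within 20 kb and DDIT3, ASNS, CHAC1 and DDIT4 had none. Over the whole list, which includes these 8, 112 of 317 matched genes had a peak (35.3%, interval 30.3 to 40.7), and the 4 of 8 stood beside that share. Only ATF4 among the 9 was off the list, so the set cannot compare induced genes with genes not on the list. GDF15 alone of the 8 was also on the list of induced genes lowered by siRNA against NRF1, beside 128 of the 317 matched induced genes. TRIB3, with its 4 peaks, was on the first list and not on the second. Among the induced genes, 51 of 128 on the second list had a peak within 20 kb (39.8%, interval 31.8 to 48.5). Of those not on it, 61 of 189 had one (32.3%, interval 26.0 to 39.2), and at 20 kb these intervals overlap. Within 2 kb, 42 of the 128 had a peak (32.8%, interval 25.3 to 41.3), beside 73 of all 317 induced genes. Within 1 kb it was 37 of 128 (28.9%) beside 66 of 317 (20.8%). The second list is part of the induced list, and at both shorter distances its share was above that of the whole list. The induced genes not on the second list therefore had a lower share than those on it within 2 kb and within 1 kb. Their own intervals were not computed at these distances, so the overlap is stated for 20 kb only and does not extend to sites near a TSS.

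CAREs were sought in the promoters because they are the elements that ATF4 binds. In the 300-base RefSeq promoters (250 bases before to 50 after the start, GRCh38.p14), 2 of 9 genes held TGATGNAA, ASNS and CHAC1, beside 3.67% of 27305 promoters. For TGATGCAA it was CHAC1 alone, beside 0.923%. In 1500 bp of hg19 around the canonical TSS (1 kb before to 500 bases after) 6 of 9 held a CARE, beside 13.9% of protein-coding genes: DDIT3, TRIB3, ASNS, CHAC1, SESN2 and DDIT4. The 9 were listed as ISR genes, and ATF4 acts in the ISR through CAREs, so these shares are a description and no independent finding. One CARE of each gene is shown with 10 bases on both sides, the nearest to the canonical TSS, on the strand on which it reads TGATGNAA, with the position of the CARE on hg19.
DDIT3, chr12:57914596-57914603: ggggcggggaTGATGCAAtgtttggcaa
TRIB3, chr20:361536-361543: ccggtccgggTGATGCAAaccggagcta
ASNS, chr7:97501781-97501788: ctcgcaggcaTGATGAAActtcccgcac
CHAC1, chr15:41245460-41245467: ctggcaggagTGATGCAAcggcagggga
SESN2, chr1:28585733-28585740: tagggttgcgTGATGAAAagggacttca
DDIT4, chr10:74032736-74032743: tcctcggtccTGATGCAAccgtctggat

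The TRIB3 sequence occurred 3 times in exon 1, at 132, 165 and 198 bp from the canonical TSS, each copy 33 bp from the last and identical over the bases shown. The first of them lay 8378 bp from the end of the nearest NRF1 peak, and the other two further from it. The CARE of ASNS lay at -68 bp, that of CHAC1 at -209, that of SESN2 at -296, that of DDIT3 at -306 and that of DDIT4 at -942, and ASNS had a second one at -886. None of these promoter CAREs was in an NRF1 peak. PPP1R15A, with a peak at its canonical TSS, had no CARE in either promoter window, nor had ATF4 or GDF15 around its canonical TSS.

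The other genes of the pathway, a list of 46, were read in the same way. Of these, 19 had a peak within 20 kb (41.3%, interval 28.3 to 55.7), beside 18.7% of protein-coding genes, and 7 within 2 kb (15.2%), beside 6.03%. Their 23 peaks had scores from 52.96 to 1022.83 with a median of 107.68. Of these peaks, 13 (56.5%) held the longer ARE form, beside 61.3% of all peaks searched. It was 56.4% of the peaks within 20 kb of a TSS of a protein-coding gene. By role, 5 of 6 amino acid transporters had a peak within 20 kb, 5 of 12 tRNA synthetases, 3 of 10 enzymes of amino acid and one-carbon synthesis, 2 of 7 phosphatase and feedback genes, 2 of 6 transcription factors and 2 of 5 kinases and eIF2 genes. Within 2 kb it was 2 of the 6 transporters, 3 of the 12 tRNA synthetases, 1 of the 10 synthesis enzymes and 1 of the 6 transcription factors, and 0 of the other 2 roles. On the MG132-induced list were 13 of the 46, and 5 of these had a peak, beside 14 of the 33 not on it. The whole induced list matched 317 genes, beside 20163 protein-coding genes. On the list lowered by siRNA were 6 of the 13, beside 128 of the 317. Of these 6, 3 had a peak: SLC7A11, SLC3A2 and CTH.

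Both chains of the cystine transporter had a peak at a TSS. SLC7A11, the light chain, had 3 peaks, the highest with a score of 131.08 centred 140 bp upstream of a TSS. SLC3A2, the heavy chain, had 2, the highest at 82.96 and 27 bp downstream of a TSS. CTH, which makes cysteine from cystathionine, had a peak with a score of 116.18 and the longer ARE form 1886 bp upstream of a TSS. CEBPB, a C/EBP family partner of ATF4, had a peak with a score of 137.22 centred 88 bp upstream of a TSS. The tRNA synthetase genes GARS1, TARS1 and EPRS1 had peaks 60, 611 and 160 bp upstream of a TSS, with scores of 205.43, 98.97 and 59.45, and the divergent GARS1-DT had a TSS nearer to the first of these.

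The 2 highest scores of the pathway list were at genes whose own TSS was not the nearest. PYCR1, which makes proline, had a peak with a score of 1022.83 (9th of all peaks) at 13150 bp, nearer to MAFG, which encodes a small MAF partner of NRF1, and NARS1 one with a score of 584.23 at 18841 bp, nearer to FECH, the ferrochelatase gene. JDP2 (159.07), PCK2 (115.16), EIF2AK3 (114.11) and PPP1R15B (112.23) had their highest peak between 10702 and 16033 bp from a TSS. Of these, only the peak of JDP2 lay nearest to its own gene. The nearest TSS was that of NRL for PCK2, of PIK3C2B for PPP1R15B and of a gene without a name in the annotation for EIF2AK3. In 12 of the 19 genes with a peak the highest-scoring one lay nearest to a TSS of the gene itself, and 3 of the 4 such genes among the 9 (all but SESN2) had their highest-scoring peak nearest to their own TSS.

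As other comparisons, 6 of 15 heat shock genes had a peak within 20 kb (40.0%, interval 19.8 to 64.3), with scores from 51.58 to 177.32. All 33 proteasome genes had one, also within 2 kb, with scores from 79.69 to 1128.13 and a median of 305.06. Of the 8 peaks of the ISR genes, only that of TRIB3 at 624.86 exceeded this median. The shares of the 9 genes, the wider pathway list, the heat shock list and the MG132-induced list lay between 35.3 and 44.4% and their intervals overlap. These lists are not separate groups, since 8 of the 9 genes and 13 of the 46 were also on the MG132-induced list.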

How the data were processed

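The authors sequenced the ChIP library with single-end reads. The submitters' processing notes name bcl2fastq, CASAVA 1.8.2, Bowtie2 2.2.6, MACS 1.4.2 and hg19. The MACS settings, duplicate removal and control library are not given in the sources used here. The deposited file gives 1 line a peak, with its position and its score. The score is the authors' value from MACS and was used only to rank and filter peaks, because it rises with read depth, which is unknown here. From the file, distances of peak centres to TSSs of GENCODE release 44 on hg19 were computed, and motifs were searched in the GRCh37 genome, which is the same assembly. Sequence was searched in 5673 peaks on chromosomes 1 to 22, X and Y without undetermined bases. Shares have 95% Wilson intervals, and no test was run, since 1 library gives no replicates. The 9 genes, the comparison lists and the alternatives were chosen with earlier results of these data known. Genes were named as follows: all 9 with every peak or, where none lay within 20 kb, the nearest one; wider ISR genes whose best peak was among the 10 highest of that list or within 2 kb of a TSS; and neighbours with the TSS nearest to a peak. Heat shock and proteasome genes were given as counts. Of the symbols on the 2 complete array lists, 317 of 332 and 128 of 138 matched the annotation. The study's annotation sheet, of which the copy used here is shortened, lists 6 sites for the 9 genes, and all 6 were among the 8 peaks. Distances, motif searches and merging were tested on simulated data. Python 3.11.15, numpy 2.4.6, pandas 2.3.3, scipy 1.17.1, pysam 0.24.0 and matplotlib 3.10.9 were used. Alternatives were other windows, a higher score threshold, peak edges, canonical TSSs, merged peaks, other motif forms and all annotated genes.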

Additional observations from a re-analysis of the deposited data

How the results depend on the processing

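With a window of 2 kb in place of 20 kb the 9 genes kept 3 peaks at 2 genes, 6.03% of protein-coding genes had a peak, and 7 wider ISR genes and 73 MG132-induced genes had one. A window of 10 kb gave 12.6% of protein-coding genes and 11 wider ISR genes, and 50 kb gave 32.7% of protein-coding genes. With a score of at least 100 there were 4 peaks at 2 of the 9 genes, all 4 with an ARE, beside 9.45% of protein-coding genes, 11 wider ISR genes and 71 MG132-induced genes. Canonical TSSs alone gave 13.0% of protein-coding genes, and all annotated genes as the background gave 12.6%. The longer ARE form was in 4 of the 8 peaks. A promoter of 1500 bp gave 6 genes with a CARE and the stricter CARE 1. Flanks of the peaks held an ARE at 7 of 8 peaks. Under peak edges, canonical TSSs and merged peaks 4 of the 9 genes had a peak, with 7 or 8 peaks. No paired analysis was possible because 1 ChIP library was analysed. The unknown depth and the 1 library limit every count: weak sites may lie under the score limit of the list, and the peak at PPP1R15A, at 54.28, is close to it.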
